A study of Homo sapiens with 6 samples.

Results

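The genes described here encode the amino acid transporters of 6 solute carrier families, SLC1, SLC3, SLC7, SLC36, SLC38 and SLC43. They were taken by symbol, as an SLC family number followed by A and a member number, and the rule gave 38 of the 17170 genes of the deposited table. SLC7A6OS, caught by the same rule, lies on the opposite strand to SLC7A6 and encodes no transporter. SLC7A3, SLC7A10 and SLC7A13 are not analysed here. The series profiled poly(A) RNA of the small cell lung cancer line NCI-H69. It holds 3 biological replicates of stable SCRMP knockout cells, made with CRISPR/Cas9 directed at the SCRMP open reading frame in MIR7-3HG, and 3 replicates of control cells with a non-targeting sgRNA. Cells of both groups grew in RPMI-1640 with fetal bovine serum (10%) and antibiotics, and the labels do not say how many clones they came from. None of the 3 names that the labels give for knockout columns was found in the table, so no knockout value is used and no test between genotypes was run. All levels are those of the 3 libraries labelled control, in TPM (a share of each library's total after division by gene length, scaled so that every library sums to 1000000). They measure the spread between these 3 libraries, which may be technical.

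Amino acids are charged or polar as whole molecules and cross membranes mainly through carriers. SLC3 members are heavy chains without a transport path of their own, which carry SLC7 light chains to the cell surface through a disulfide bond, while other SLC7 members carry cationic amino acids alone. SLC1 holds sodium-driven carriers of glutamate and of small neutral amino acids, SLC38 holds sodium-coupled carriers of glutamine, alanine and their like, SLC36 holds proton-driven carriers and SLC43 holds facilitators of large neutral amino acids. Tumour cells are known for high SLC1A5, SLC7A5 and SLC7A11, which bring in glutamine, leucine and cystine, and amino acid shortage raises several of these genes through the transcription factor ATF4.

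The libraries held 20941185 to 22477571 estimated reads and no pair was a repeat of one library, since their counts gave chi-square values of 6.18 to 15.8 per degree of freedom. Markers of the labelled cell type were low. Of 9 neuroendocrine markers 1 was detected (every library at 1 TPM or more), namely NCAM1 with 25.7 TPM ± 3.66 (SD, n = 3). Of all genes, 66.5% were detected. Of 7 mesenchymal markers 6 were detected, with a sum of 4957 to 5103 TPM per library, most of it VIM. Of 7 fibroblast markers 6 were detected, with a sum of 1368 to 1537 TPM, against 0 of 3 measured endothelial, 1 of 4 leukocyte and 1 of 6 epithelial markers. The fibroblast marker not detected was PDGFRB, with 0.533 TPM. These marker levels go against the labelled identity, a neuroendocrine small cell lung cancer line. The libraries are called by their label below, and the part of this profile in the transporter levels was not tested.

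Promoter sequences are shown first because several of these genes are known to respond to amino acid supply or growth signals through short DNA motifs. RefSeq (GRCh38.p14) gave 53 transcription starts for 31 of the 38 genes, each as 250 bases before to 50 after the start. SLC1A2, SLC3A1, SLC7A2, SLC7A4, SLC7A11, SLC38A3 and SLC43A3 had no entry. Both strands were searched for TGATGNAA, the core of the CARE element bound by ATF4 with a C/EBP partner, for TGACNNNGC, the core of the antioxidant response element, and for CACGTG, the E-box bound by MYC and MAX and by TFEB. Matches of TGATGNAA lay at 6 of 53 starts (11.3%), in 6 genes, against 3.62% of all 35116 promoters, 2.44% of the promoters of measured genes and 2.05% of those of detected genes. The 6 genes were SLC3A2, SLC1A5, SLC38A1, SLC7A1, SLC1A4 and SLC1A3. All 6 averaged 10 TPM or more, as did 15 of the 31 members with a promoter entry, while over all genes the motif was rarer at detected than at measured genes. The 30 bases around each match are given 5′ to 3′ on the gene's strand, with the match in capitals, so that the shared core can be compared. TTGCATCA and TTACATCA are the reverse complement of the motif.
SLC3A2 (plus strand, chr11:62881719-62881748): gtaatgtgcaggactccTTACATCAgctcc
SLC1A5 (minus strand, chr19:46784893-46784922): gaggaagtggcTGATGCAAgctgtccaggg
SLC38A1 (minus strand, chr12:46266502-46266531): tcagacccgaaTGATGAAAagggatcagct
SLC7A1 (minus strand, chr13:29595663-29595692): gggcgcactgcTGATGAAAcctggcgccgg
SLC1A4 (plus strand, chr2:64989381-64989410): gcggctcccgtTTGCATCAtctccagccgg
SLC1A3 (plus strand, chr5:36596357-36596386): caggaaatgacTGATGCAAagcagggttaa

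SLC1A5, SLC1A4 and SLC1A3 shared the form with C at the free position, and SLC38A1 and SLC7A1 the form with A. Counting the start base as 1, the match began at -97 in SLC1A5, at -7 in SLC1A4, at -4 in SLC38A1, at 8 in SLC7A1 and at 38 in SLC3A2. In SLC1A3 it began at -220. Only SLC7A1 has a single listed start, and which start these cells use was not tested. The count depends on the stretch searched, since the 150 bases before the start held TGATGNAA at 1 of 53 starts (1.89%), that of SLC1A5, against 1.90% of all promoters. In that stretch, chosen after seeing the data, the members' share was close to that of all promoters. Promoters of measured genes had 1.28% and those of detected genes 1.02%, which 1 start cannot separate from the members' share. The 150 bases nearest the start, 100 of them before it, held the motif at 5 of 53 starts (9.43%). Shares there were 1.83% of all promoters, 1.20% of those of measured genes and 1.01% of those of detected genes.

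TGACNNNGC lay at 7 of 53 starts (13.2%), close to the 13.3% of all promoters. CACGTG lay at 9 of 53 starts (17.0%), in 9 genes, against 7.26% of all promoters, 8.64% of those of measured genes and 9.51% of those of detected genes. In the 150 bases nearest the start CACGTG lay at 4 of 53 starts (7.55%), against 4.37% of all promoters. Promoters of detected genes had 5.84% there. The 150 bases before the start, a stretch chosen after seeing the data, held CACGTG at 6 of 53 starts (11.3%). Shares there were 4.57% of all promoters and 6.15% of those of detected genes. Of the CACGTG genes, SLC1A5, SLC7A5, SLC43A1, SLC7A8 and SLC38A7 averaged 10 TPM or more, and SLC36A1, SLC7A7, SLC38A5 and SLC1A7 less. No match of a motif overlapped that of another in these genes. A match is a description of sequence and says nothing on binding. The promoters of a heavy and a light chain are given for the 250 bases before the start, SLC3A2 with its TGACNNNGC match and SLC7A5 with its CACGTG match, in capitals.
SLC3A2 (plus strand, chr11:62881449-62881698): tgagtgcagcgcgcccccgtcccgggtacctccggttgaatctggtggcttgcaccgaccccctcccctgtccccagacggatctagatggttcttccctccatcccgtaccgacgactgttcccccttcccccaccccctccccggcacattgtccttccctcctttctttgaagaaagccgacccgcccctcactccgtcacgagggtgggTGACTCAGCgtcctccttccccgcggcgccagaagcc
SLC7A5 (minus strand, chr16:87869508-87869757): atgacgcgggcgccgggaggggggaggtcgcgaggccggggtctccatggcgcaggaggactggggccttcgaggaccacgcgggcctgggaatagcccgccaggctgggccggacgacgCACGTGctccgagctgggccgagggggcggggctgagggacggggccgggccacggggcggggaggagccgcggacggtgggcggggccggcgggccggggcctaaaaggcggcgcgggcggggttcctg

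**Figure D1:**
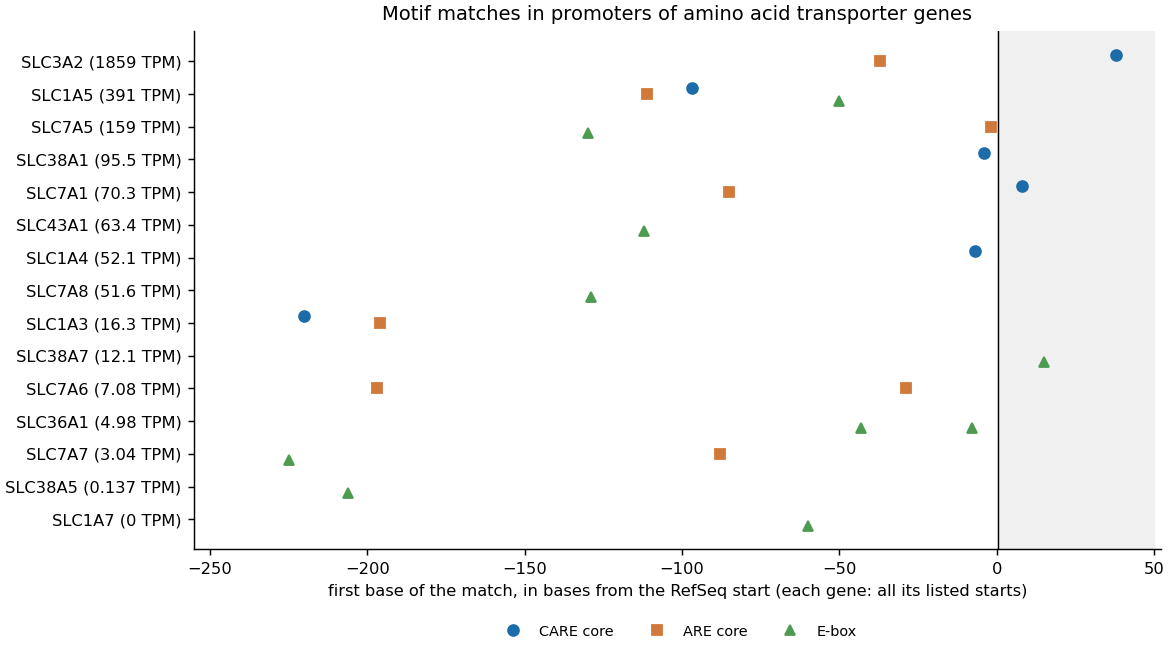
Positions of the 3 motif cores in promoters of the transporter genes. The x axis is the first base of the match in bases from the RefSeq start (grey, after the start), all listed starts of a gene share a row, and rows run from the highest to the lowest mean TPM. CARE cores lie at 6 genes, from -220 in SLC1A3 to 38 in SLC3A2, and E-boxes at 9 genes, from -225 in SLC7A7 to 15 in SLC38A7.

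The transporter genes ranged from 0 to 1859 TPM, and a heavy chain was the highest of them. Detected members numbered 23 of 38 (60.5%), against 66.5% of all genes. Of the 38, 17 averaged 10 TPM or more (44.7%), against 44.1% of all genes, so neither share stood far from the background. Of the 263 other SLC genes, 56.7% were detected and 33.1% reached 10 TPM. The median member had 4.57 TPM, against 6.87 TPM for the median gene, a log2(TPM + 1) difference of -0.50 ± 0.09. Among genes detected at 1 TPM the direction turned, with a difference of 0.46. All members summed to 3154 TPM ± 21.5 (SD, n = 3), or 0.315% of all TPM, and the 3 highest held 76.9% of that sum.

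**Figure D2:**
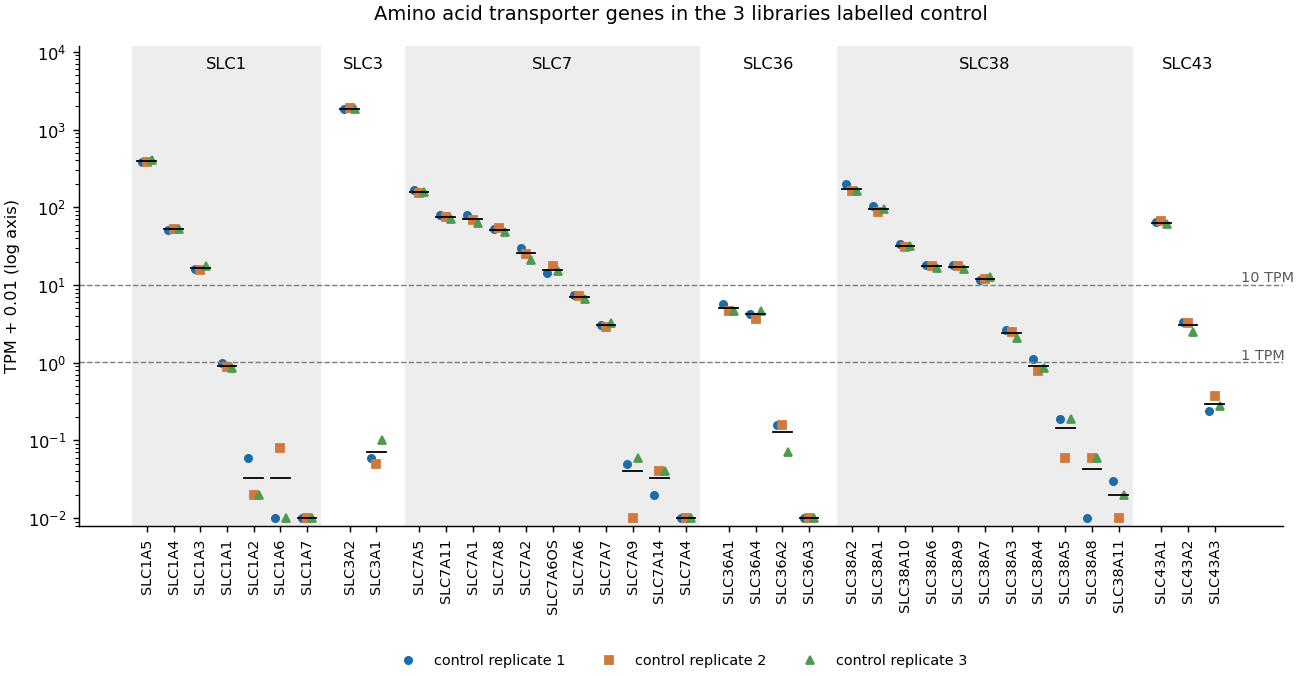
TPM of every member in each of the 3 libraries labelled control, on a log axis after adding 0.01, by family and from high to low within it. Points are libraries, bars are means, and dashed lines mark 1 and 10 TPM. SLC3A2 stands above all others, and each family reaches from its highest member down to members under 10 TPM.

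The families differed in sum and in how evenly their members shared it. SLC3 held 58.9% ± 1.28 of the members' TPM, SLC1 14.6% ± 0.527, SLC7 12.9% ± 0.629, SLC38 11.1% ± 0.977, SLC43 2.12% ± 0.0768 and SLC36 0.294% ± 0.0262 (SD, n = 3). With SLC3A2 left out, SLC1, SLC7 and SLC38 held 35.6%, 31.4% and 27.1%. The SLC7 values include SLC7A6OS, which encodes no transporter and gave 15.6 TPM of the family's 407 TPM. The highest member held 84.9% of its family in SLC1 and 95.0% in SLC43, against 39.0% in SLC7 and 49.5% in SLC38, where several members were abundant.

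Of both heavy chains, SLC3A2 was abundant and SLC3A1 was near 0. SLC3A2 (gene number 6520, chromosome 11, 62856109 to 62888860 in GRCh38.p14, as are all positions here), known as 4F2hc or CD98, had 1822, 1898 and 1855 TPM in control replicates 1, 2 and 3. It averaged 1859 TPM ± 38.3 and ranked 90 among 17170 genes. The 3 libraries lay close together, with a coefficient of variation (CV, the SD as a percentage of the mean) of 2.06%, and no other member came near them. SLC3A1, the heavy chain of the cystine carrier of kidney and gut, had 0.0600 TPM ± 0.0265, from at most 3.32 estimated reads in a library. It overlaps PREPL, a gene with 34.4 TPM, by 4831 bp. Its partner SLC7A9 had 0.0300 TPM ± 0.0265 and at most 1.21 reads in a library. Neither chain of that pair was detectable above a few reads at this depth.

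The light chains that pair with SLC3A2 were led by SLC7A5, and together they were far below their heavy chain. SLC7A5 (LAT1, gene number 8140, chromosome 16, 87830023 to 87869507), the exchanger of leucine and other large neutral amino acids, had 164.6, 152.4 and 159.5 TPM. SLC7A5 has pseudogene copies of closely similar sequence, SLC7A5P1 and SLC7A5P2, so the assignment of its reads is uncertain. SLC7A11 (xCT), which takes up cystine in exchange for glutamate, had 79.95, 75.0 and 70.3 TPM. SLC7A8 (LAT2), a carrier of large and small neutral amino acids, had 52.5, 53.7 and 48.6 TPM. The ranges of these 3 chains did not overlap.

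SLC7A6 and SLC7A7, the y+LAT chains that exchange cationic for neutral amino acids, were low at 7.08 TPM ± 0.490 and 3.04 TPM ± 0.181. SLC7A5 gave 53.7% ± 1.53 of the light chain TPM, SLC7A11 25.4% ± 0.868, SLC7A8 17.5% ± 0.854, SLC7A6 2.40% ± 0.117 and SLC7A7 1.03% ± 0.0731 (SD, n = 3). The ratio of SLC3A2 to the summed light chains was 5.92, 6.52 and 6.44 in the 3 libraries, a mean of 6.29 ± 0.323. Each heterodimer holds a single heavy chain and a single light chain, and these are RNA levels, which do not give protein amounts. SLC3A2 exceeded SLC7A5 alone 11.7-fold ± 0.697.

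**Figure D3:**
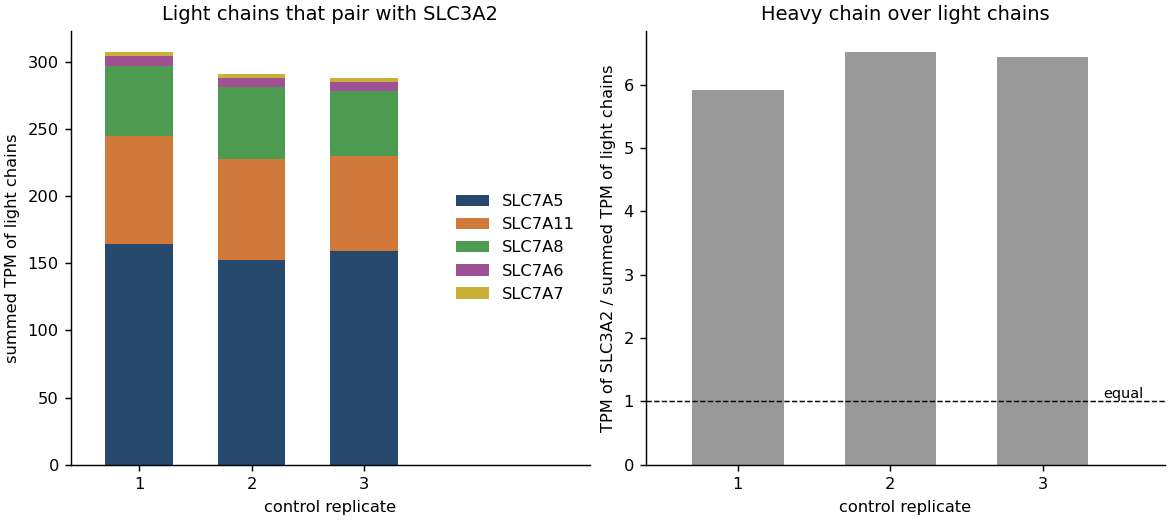
Left, TPM of the 5 measured light chains of SLC3A2 stacked per library; right, TPM of SLC3A2 over their sum, with a dashed line at equal levels. SLC7A5 makes up 52.3% to 55.4% of the light chain sum, and the ratio lies between 5.92 and 6.52.

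SLC7A11 was the member whose spread depended most on the measure. As CPM, estimated reads divided by the library's total and not by length, it had 209.6, 153.3 and 134.5, a CV of 23.6%, against 6.44% in TPM. The highest library exceeded the lowest 1.56-fold in CPM and 1.14-fold in TPM. Reads per TPM, which follow the gene length that was divided out, were 1.21, 0.928 and 0.857 relative to their mean, and differed 1.42-fold between libraries. Of the 7295 genes that reached 10 TPM in each library, 0.0274% had a larger difference. The libraries held the same order, replicate 1 highest and replicate 3 lowest, on both scales. An antisense gene, SLC7A11-AS1, overlaps 14081 bp of SLC7A11, and no source used here says whether the authors counted by strand. The part of either in the spread was not tested.

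The cationic carriers of SLC7 were represented by SLC7A1 and SLC7A2. SLC7A1 (CAT1, chromosome 13, 29509414 to 29595688), the broadly expressed carrier of arginine and lysine, had 78.88, 69.02 and 63.03 TPM. SLC7A2 (CAT2, chromosome 8, 17494069 to 17570566) had 30.2, 25.4 and 21.3 TPM, and did not overlap SLC7A1. SLC7A2 had the largest CV of the 17 members at 10 TPM or more, 17.5%, and 3.68% of all genes at that level had a larger one. Both genes were highest in replicate 1 and lowest in replicate 3, and their ratio varied less, at 2.77 ± 0.182 (SD, n = 3). SLC7A14, a lysosomal relative, had 0.0233 TPM ± 0.0115. SLC7A4, an orphan member, had 0 reads in all 3 libraries, where a count of 0 allows up to 3 reads per library, for counting error only.

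In SLC1 the neutral amino acid exchangers were abundant and most glutamate carriers were near 0. SLC1A5 (ASCT2, gene number 6510, chromosome 19, 46774883 to 46788594), a main entry route of glutamine in proliferating cells, had 380.7, 387.8 and 405.7 TPM, and ranked 305 among all genes. SLC1A4 (ASCT1), an exchanger of serine, alanine and cysteine, had 51.7, 52.7 and 51.9 TPM. Its CV of 0.948% lay below the 1.90% that counting its reads would give, and 98.1% of genes at 10 TPM or more varied more. SLC1A5 exceeded SLC1A4 7.52-fold ± 0.264.

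Of 5 measured high-affinity glutamate carriers 1 was detected, against 66.5% of all genes and 56.7% of other SLC genes. It was SLC1A3 (EAAT1, or GLAST in the brain), a carrier of astrocytes and many cultured cells, with 16.2, 15.5 and 17.3 TPM. SLC1A1 (EAAT3), the carrier of neurons and kidney, had 0.980, 0.870 and 0.850 TPM, just under the detection limit in every library. SLC1A2 (EAAT2), the main glutamate carrier of astrocytes, and SLC1A6 (EAAT4), that of Purkinje cells, had 0.0233 TPM each, with at most 7.43 reads in a library. SLC1A7 (EAAT5), of the retina, had 0 reads in all 3 libraries. Of 5 measured astrocyte and neuron markers 1 was detected, against 66.5% of all genes. The detected marker was SNAP25 at 2.09 TPM, and GFAP had 0.0433 TPM.

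In SLC38 the system A carriers SLC38A2 and SLC38A1 led, and the system N carriers were low. SLC38A2 (SNAT2), a sodium-coupled carrier of small neutral amino acids known to rise when amino acids are short, had 200.8, 160.1 and 161.6 TPM. Replicate 1 stood above the other libraries, and the CV of 13.2% was exceeded by 10.8% of genes at 10 TPM or more. SLC38A1 (SNAT1), a glutamine carrier, had 102.3, 88.1 and 96.04 TPM and lay below SLC38A2 in each library. SLC38A4 (SNAT4), best known from liver and placenta, had 1.10, 0.770 and 0.850 TPM, from 36.99 to 49.0 reads.

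These 3 genes lie on chromosome 12, with 89144 bp between SLC38A1 and SLC38A2 and 391987 bp between SLC38A2 and SLC38A4. Members of unlike level also lay within 56953 bp on chromosome 11 (SLC43A1 and SLC43A3) and within 305503 bp on chromosome 14 (SLC7A8 and SLC7A7), and other genes between them were not looked at. SLC38A3 (SNAT3), a system N carrier of glutamine in liver and kidney, had 2.39 TPM ± 0.304, and SLC38A5 (SNAT5) had 0.137 TPM ± 0.0751 from at most 4.29 reads.

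Further SLC38 members were at moderate levels. SLC38A10, a less studied member, had 33.4, 30.8 and 31.5 TPM, and SLC38A6 had 18.2, 17.4 and 16.6 TPM. SLC38A6 overlaps TRMT5, a tRNA methyltransferase gene on the other strand with 26.1 TPM, by 446 bp. SLC38A9, the lysosomal arginine sensor of the mTORC1 pathway, had 17.9, 17.4 and 15.95 TPM. SLC38A7, which exports glutamine and asparagine from lysosomes, had 11.7, 11.9 and 12.7 TPM. SLC38A8 and SLC38A11 had at most 1.00 reads in a library.

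SLC43 was represented by SLC43A1 and SLC36 by 2 members of low level. SLC43A1 (LAT3), a facilitator of leucine and other branched-chain amino acids, had 63.7, 65.6 and 60.9 TPM. It exceeded SLC43A2 (LAT4), of related function, which had 3.02 TPM ± 0.443. SLC43A3, better known as a purine carrier, had 0.287 TPM ± 0.0666. SLC36A1 (PAT1), a proton-driven carrier of lysosomes, had 5.68, 4.62 and 4.63 TPM, and SLC36A4 had 4.17 TPM ± 0.476. SLC36A2, of kidney, had 0.120 TPM ± 0.0520, and SLC36A3, of testis, was listed at 0 TPM in all 3 libraries. SLC36A1 and SLC36A2 overlap by 2964 bp on opposite strands.

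SLC7A6OS, the gene without transport function, had 14.4, 17.3 and 15.1 TPM, above SLC7A6 in each library. The genes overlap by 3786 bp on opposite strands, so the split of their reads is uncertain. Reads per TPM of SLC7A6OS differed 1.24-fold between libraries, a difference that 0.247% of genes exceeded, and its CV was 9.73% in TPM and 3.10% in CPM.

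Ordered by mean TPM, 7 of the 16 neighbouring pairs among the 17 members at 10 TPM or more overlapped in range. These were SLC38A2 with SLC7A5, SLC7A11 with SLC7A1, SLC7A1 with SLC43A1, SLC1A4 with SLC7A8, and the run SLC38A6, SLC38A9, SLC1A3 and SLC7A6OS. Within each library SLC38A2 still exceeded SLC7A5, SLC7A11 exceeded SLC7A1 and SLC7A1 exceeded SLC43A1. Among the remaining overlapping pairs the order changed between libraries. The ranges of the other pairs did not overlap. An exact paired permutation test over 3 libraries could not go below p = 0.25 (two-sided), so none was run. The 6 members detected below 10 TPM, from SLC7A6 at 7.08 TPM to SLC38A3 at 2.39 TPM, rest on 74.0 reads or more in each library. Of the 15 members not detected, SLC38A4 and SLC1A1 averaged just under 1 TPM, SLC38A4 with 1.10 TPM in replicate 1, and the other 13 had 0.287 TPM or less and at most 12 reads in a library.

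Between libraries, the members varied about as much as other genes of their level. The median CV over the 17 members at 10 TPM or more was 5.16%, against 6.11% over 7577 genes. Control replicate 1 was the highest library for 9 of the 17 (52.9%), against 54.5% of genes at that level, a share near the background. Replicate 2 was highest for 5 (against 17.4%) and replicate 3 for 3 (against 27.9%). SLC38A2, SLC38A1, SLC7A11, SLC7A1 and SLC7A2 were highest in replicate 1, whereas SLC1A5, SLC1A3 and SLC38A7 were highest in replicate 3.

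**Figure D4:**
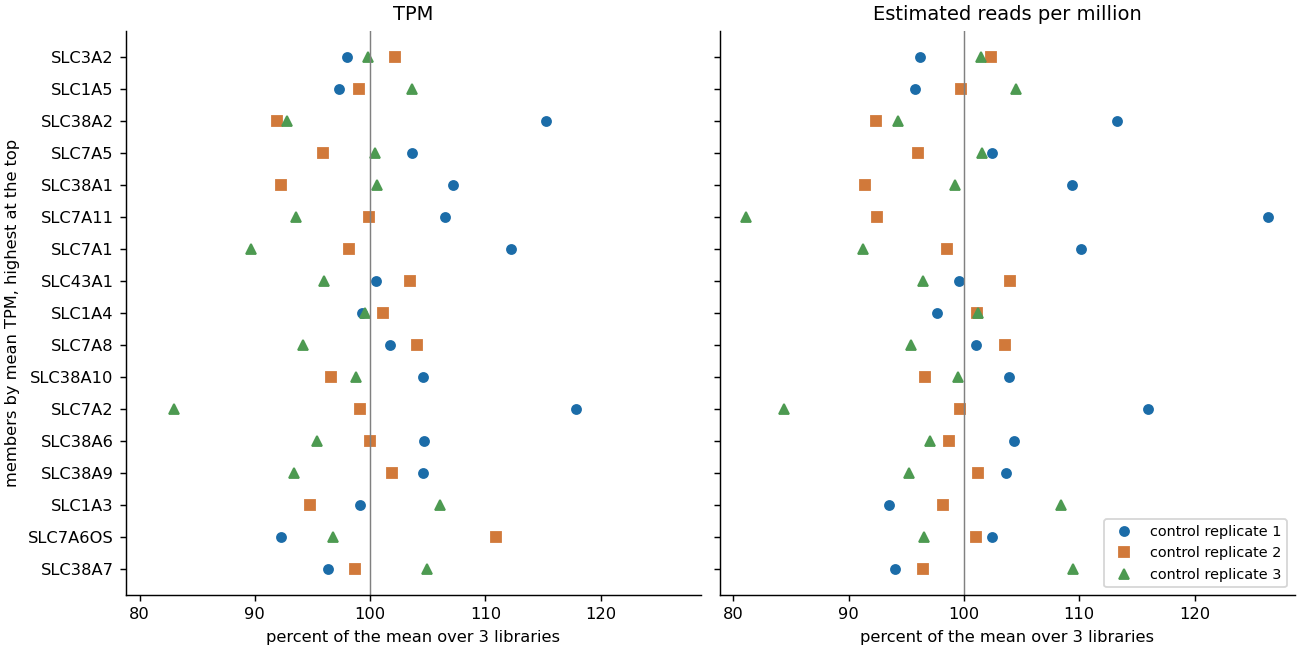
Each library's value as a percentage of the mean over 3 libraries for the 17 members at 10 TPM or more, in TPM (left) and in CPM (right). SLC7A2 spreads most in TPM, with a CV of 17.5%, and SLC7A11 spreads most in CPM, with a CV of 23.6% against 6.44% in TPM.

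Genes listed for the ATF4 response were mostly abundant in the same libraries. The list held 16 genes, of which ASNS, CHAC1 and SESN2 are also counted in lists below. Of these 16 genes 16 were detected, against 66.5% of all genes. This list, like those below, was chosen with earlier results of these data known, and its median was 404.4 TPM ± 18.7 (SD, n = 3). ATF4 itself had 1071, 1172 and 1154 TPM, lowest in replicate 1. TRIB3, a pseudokinase target of ATF4, had 1026 TPM ± 86.1, and DDIT3, the factor CHOP, had 925.3 TPM ± 75.5. VLDLR was the lowest at 8.03 TPM ± 0.779. Within the list TRIB3 and DDIT3 were also lowest in replicate 1, whereas ASNS and CEBPB were highest there. Replicate 1 was highest for 9 of the 17 transporter genes at 10 TPM or more, near the 54.5% of all genes at that level. The same library was lowest for 5 of the 17. With 3 libraries no relation of transporter levels to ATF4 RNA was computed.

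Genes of the lysosomal pathway that reports amino acids to mTORC1 were detected in 30 of 31 cases, against 66.5% of all genes. Their list had a median of 14.9 TPM ± 1.14. LAMTOR4, LAMTOR5 and RHEB, 2 subunits of the Ragulator scaffold and the activator of mTORC1, were highest at 245.9 TPM ± 12.7, 199.0 TPM ± 6.07 and 159.3 TPM ± 1.002. SESN1, a leucine sensor, was lowest at 1.25 TPM ± 0.320 and fell under 1 TPM in replicate 3. The leucine sensor SESN2 had 42.9 TPM ± 2.01. The arginine sensor CASTOR1 had 2.00 TPM ± 0.0306, against 17.1 TPM ± 0.997 for the lysosomal arginine sensor SLC38A9.

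Downstream of SLC7A11, 13 of 15 genes of cystine use and glutathione were detected, against 66.5% of all genes. Their list had a median of 93.4 TPM ± 2.37. GPX4, which reduces lipid peroxides with glutathione, had 970.0 TPM ± 70.8, TXNRD1, thioredoxin reductase, 309.4 TPM ± 40.1, and KEAP1, the inhibitor of NRF2, 290.4 TPM ± 18.8. CTH, the last enzyme of cysteine synthesis from methionine, had 194.9 TPM ± 1.54, while CBS, the enzyme before it, had 0.0333 TPM ± 0.0351. OPLAH was listed at 0 TPM in all 3 libraries.

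For glutamine, a cargo of SLC1A5 and of several SLC38 carriers, 13 of 16 measured genes of its use were detected. Of all genes 66.5% were, and the list had a median of 79.1 TPM ± 1.09. ASNS, which makes asparagine with nitrogen taken from glutamine, had 876.8 TPM ± 38.6. GOT1 had 331.3 TPM ± 26.3 and GFPT1, at the entry of hexosamine synthesis, 198.3 TPM ± 21.1. The glutamine synthetase GLUL had 78.7 to 81.5 TPM, and GFPT2 was lowest at 0.857 TPM ± 0.0208.

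For glycine and for serine, a cargo of SLC1A4, 9 of 11 synthesis and use genes were detected, against 66.5% of all genes. Their list had a median of 122.3 TPM ± 7.84. The mitochondrial folate enzymes MTHFD2 and SHMT2 had 1108 TPM ± 16.0 and 817.9 TPM ± 15.4, and PSAT1, of serine synthesis, had 761.9 TPM ± 30.5. AMT, of the glycine cleavage system, was lowest at 0.167 TPM ± 0.112.

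For the essential amino acids that SLC7A5 and SLC43A1 bring in, 9 of 15 breakdown genes were detected, against 66.5% of all genes. Their list had a median of 14.6 TPM. BCKDHA had 54.2 TPM ± 2.35, MCCC2 51.6 TPM ± 4.55 and the cytosolic branched-chain transaminase BCAT1 34.9 TPM ± 4.59. For arginine, a cargo of SLC7A1, 11 of 13 measured genes were detected, against 66.5% of all genes, and the median was 55.9 TPM ± 3.27. ASS1, which makes arginine from citrulline together with ASL, had 1496 TPM ± 55.3, ODC1, the first enzyme of polyamine synthesis, 234.1 TPM ± 22.1, and SRM, spermidine synthase, 125.9 TPM ± 1.54. NOS1 was lowest at 0.0667 TPM ± 0.0153.

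**Figure D5:**
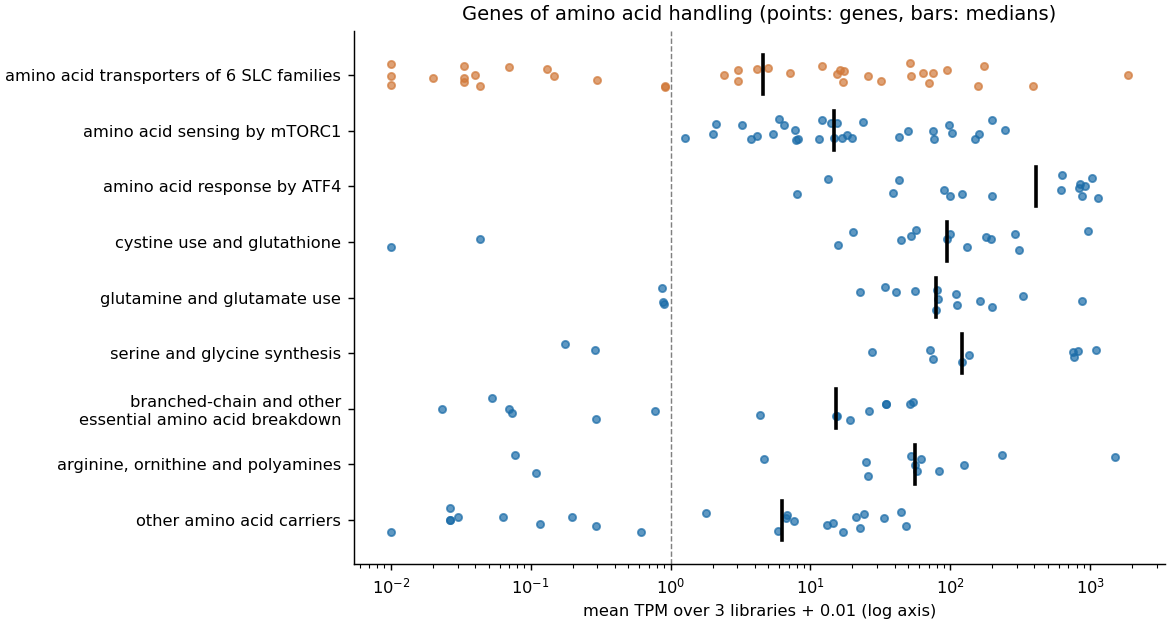
Mean TPM over the 3 libraries labelled control, on a log axis after adding 0.01, for the 38 transporter genes (orange) and for genes of amino acid handling by list (blue). Points are genes and black bars are medians over genes; the transporters' median of 4.57 TPM is the lowest of the 9 and that of the ATF4 response the highest.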

How the data were processed

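The table of 17170 genes deposited by the authors holds TPM, FPKM and estimated counts for each library. The submitters' processing notes list HISAT2, StringTie, DESeq2 and the build GRCh38, with no role or version. Annotation, filters and strand setting were not given in the sources used here. Per the labels' protocols, libraries had poly(A) selection and kept the strand. TPM sum to 1000000 in each library, FPKM to 566295 to 587054, and 24.0% of the deposited estimated counts are whole numbers. Columns were matched by the names in the labels. The 12 value columns that match no sample were used in no step.

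Means, SDs, sums, shares and ratios were computed from TPM. Detection meant 1 TPM or more in all 3 libraries, and log2 values used log2(TPM + 1). Positions and promoters came from RefSeq (GRCh38.p14), where 38 of 38 members matched by gene number, and strands from GENCODE. Members at 10 TPM or more, heavy chains and each family's highest member were named with all values. Of each further list the 3 highest and the lowest gene were named, except that some genes are not reported here; any other gene was chosen after its values were seen. Members and lists were chosen with earlier results of these data known. Calculations were tested on simulated data. Alternatives were FPKM, other minimums, 10 reads, other pseudocounts and scalings, and each library left out in turn. Tables were read with pandas 2.3.3 and numpy 2.4.6 under Python 3.11.15, and drawn with matplotlib 3.10.9.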

Additional observations from a re-analysis of the deposited data

How the results depend on the processing

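No paired analysis was possible because the knockout columns named in the labels were not found. The detected members, 23, were 18 when 5 TPM was required and 25 with 0.5 TPM or 10 estimated reads, and were 22 without SLC7A6OS. Those at 10 TPM or more, 17, were 13 in FPKM, whose totals are lower, and stayed at 17 without each library in turn. No share of all genes at these settings is given here, so these counts are not set against the background. Without SLC3A2 the family shares were 35.6% for SLC1, 0.00465% for SLC3, 31.4% for SLC7, 0.715% for SLC36, 27.1% for SLC38 and 5.15% for SLC43, by construction. The members' median log2 level lay -0.50 ± 0.09 from that of all genes and turned to 0.46 among genes detected at 1 TPM, which leaves out the members near 0. Genes with TGATGNAA, 6, were 5 in the 150 bases nearest the start and 1 in the 150 bases before it, a stretch chosen after seeing the data. Those with CACGTG, 9, were 4 in the 150 bases nearest the start, at 7.55% of starts against 4.37% of all promoters. In the 150 bases before the start they were 6, at 11.3% of starts against 4.57% of all promoters. Without each library in turn, SLC3A2 over its light chains was 6.18 to 6.48, against 6.29. Of 70 alternative counts for the gene lists, 70 stayed within 1.5 times. Light chains without SLC7A10 were not run, since it has no value here. Members under 1 TPM rest on few reads.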

Other observations

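Amino acid carriers outside the 6 families were lower than the highest members and about as often detected. Of 29 carriers listed from SLC6, SLC15, SLC16, SLC17, SLC25 and others, 24 were measured and 14 detected, against 66.5% of all genes. Their list had a median of 6.14 TPM ± 0.769 (SD, n = 3). The glycine carrier SLC6A9 (GLYT1) had 52.7, 46.98 and 45.3 TPM, the mitochondrial glycine carrier SLC25A38 44.1 TPM ± 1.35 and the creatine carrier SLC6A8 33.8 TPM ± 1.30. The neutral amino acid carrier SLC6A15, best known from the brain, had 27.4, 23.3 and 21.9 TPM. SLC6A14, SLC6A19, SLC15A2 and SLC32A1 had 0.0200 TPM or less, and SLC6A17 was listed at 0. CTNS, the cystine exporter of lysosomes, had 6.70 TPM ± 0.406, and SLC66A1, which exports cationic amino acids from lysosomes, had 6.84 TPM ± 0.359.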
